A study of Homo sapiens with 48 samples.

Results

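Antisense RNAs, named -AS1, -AS2 and so on after the gene they lie opposite, and long intergenic RNAs, named LINC with a number, are long noncoding RNAs: mostly spliced and polyadenylated like messenger RNAs, but with no known protein in most cases. The genes described here were those with such a name and a mean of 3 CPM or more (counts scaled to a library of 1e6) over all 48 libraries, without EPB41L4A-AS1, which hosts a small nucleolar RNA (snoRNA). These were 207 of the 58870 genes in the table, 138 antisense and 69 LINC genes. The names matched 3181 genes, of which 1260 had no count in any library and 464 had enough counts to be tested. All 207 members were among the 16697 genes tested.

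The libraries were rRNA-depleted total RNA from the Flp-In 293 T-REx line, which descends from human embryonic kidney cells and has a site built in for placing transgenes. Each of 8 stable lines carried a different insert: CLIP-UPF1 with the substitution F192E, I757R or E797R, the variants labelled FE-ER, IR-ER and LECY, CLIP-UPF1 WT, or the CLIP tag alone, here called the CLIP line. Every line was transfected for 72 h with 40 nM of an siRNA against UPF1 (siUPF1) or a non-targeting siRNA (siNT), with 3 biological replicates of each of the 16 groups. Each insert was represented by 1 line, so that a difference between lines cannot be told apart from a difference between inserts. All lines were kept under hygromycin, and the tag, the UPF1 transgenes and the siRNAs were the only treatments named in the labels. In bulk RNA of this kind, fewer cells that make an RNA and less of it per cell cannot be told apart.

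UPF1 is the RNA helicase at the core of nonsense-mediated decay (NMD), which degrades RNAs on which a ribosome stops well upstream of an exon junction. Many long noncoding RNAs reach the cytoplasm and carry short open reading frames ahead of such junctions. Some RNAs that host snoRNAs are well-known substrates for this reason. Antisense RNAs often start beside the promoter of their sense gene and are transcribed away from it, or run across it.

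Libraries held between 6017000 and 14551800 expected counts (median 8670880). In the CLIP line UPF1 averaged 20.4 ± 0.916 CPM with siUPF1 and 105.7 ± 7.45 CPM with siNT (SD, n = 3 each), a log2 fold change of -2.37. In the 7 lines with a transgene the summed transgene and endogenous reads averaged 3260 to 4819 CPM with siUPF1, and did not show how far the endogenous gene was lowered. The markers VIM, KRT8, KRT18, INA and NEFL, which 293 cells are known to make, were detected in every library. Also detected in every library, at lower levels, were NEFM (1.15 CPM), LHX1 (1.91 CPM), COL1A1 (2.31 CPM), COL3A1 (2.92 CPM), PDGFRA (3.16 CPM) and PAX2 (5.17 CPM). AQP4 averaged 0.993 CPM. Markers of blood cells (CD3E) and mature kidney tubules (UMOD) were at 0 in every library, and PTPRC averaged 0.0195 CPM.

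Members were of moderate to low abundance. Their mean levels ran between 3.06 and 131.6 CPM with a median of 8.37 CPM, 85 members reached 10 CPM and 4 reached 100 CPM. The most abundant were OIP5-AS1 at 131.6 CPM, known for directing the destruction of the microRNA miR-7, FGD5-AS1 at 128.7 CPM, TP73-AS1 at 117.7 CPM and GABPB1-AS1 at 103.5 CPM, and none of these 4 passed the test in the CLIP knockdown described later. They were followed by SLC16A1-AS1 (73.5 CPM), LINC00665 (69.3 CPM), TMEM147-AS1 (62.6 CPM), LINC00205 (61.3 CPM), NUTM2B-AS1 (54.7 CPM) and LINC02210 (49.5 CPM). The members just inside the threshold were MNX1-AS1 at 3.06 CPM, ARHGAP5-AS1 at 3.06 CPM and LPP-AS2 at 3.07 CPM, and the genes just outside it were KIAA1614-AS1 at 2.98 CPM, FLG-AS1 at 2.97 CPM and CIRBP-AS1 at 2.97 CPM. The levels of all members together came to 2784 to 3029 CPM in the 8 siUPF1 groups and 2911 to 3022 CPM in the 8 siNT groups. All 207 members matched a gene of GENCODE 29 by identifier, typed there as antisense in 103 cases, as lincRNA in 60, as processed transcript in 30, as a transcribed unprocessed pseudogene in 8, as a transcribed unitary pseudogene in 3, as a bidirectional promoter RNA in 2 and as protein coding in 1, NCBP2-AS2.

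The sequences that follow are from members that changed in the CLIP knockdown described next, and are shown because NMD acts where a frame ends upstream of a junction. Each is the longest frame that begins with ATG in the longest annotated transcript (GENCODE 29, hg38, written 5′ to 3′), with the start and stop codons in capitals. Whether any of these frames is translated, and which isoform these cells made, was not measured. The sequences are a choice and do not represent the members that changed. An exon junction more than 50 nt past the stop was annotated for 13 of 27 members that rose and 13 of 39 that fell. Among the large rises LINC01002, LINC01578 and LINC00265, not printed here, have none. Whether NMD acts on any of these RNAs was not tested. Among members that rose, LINC01357 (chr1:112850028-112877871, plus strand, 3 exons), its neighbour SLC16A1-AS1 (chr1:112956415-113047055, plus strand, 3 exons), RNASEH1-AS1 (chr2:3558492-3561745, plus strand, 3 exons) and NR2F1-AS1 (chr5:93409359-93585648, minus strand, 5 exons) each have an exon junction more than 50 nt past the stop, the first such junction lying 201 nt past it in LINC01357, 894 nt in SLC16A1-AS1, 227 nt in RNASEH1-AS1 and 366 nt in NR2F1-AS1. SCAMP1-AS1 (chr5:78342365-78360507, minus strand, 2 exons) also rose and has no junction after its frame.
LINC01357: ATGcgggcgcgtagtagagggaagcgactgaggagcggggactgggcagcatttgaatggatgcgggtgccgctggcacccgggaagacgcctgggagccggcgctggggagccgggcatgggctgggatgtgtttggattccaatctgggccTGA
SLC16A1-AS1: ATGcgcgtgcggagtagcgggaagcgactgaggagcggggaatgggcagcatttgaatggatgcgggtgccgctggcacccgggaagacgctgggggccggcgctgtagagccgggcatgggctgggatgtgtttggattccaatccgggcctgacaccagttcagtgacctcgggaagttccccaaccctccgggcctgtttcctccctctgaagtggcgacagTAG
RNASEH1-AS1: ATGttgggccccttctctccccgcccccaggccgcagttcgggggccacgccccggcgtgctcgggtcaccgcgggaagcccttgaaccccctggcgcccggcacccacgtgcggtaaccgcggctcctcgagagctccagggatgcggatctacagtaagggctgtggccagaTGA
NR2F1-AS1: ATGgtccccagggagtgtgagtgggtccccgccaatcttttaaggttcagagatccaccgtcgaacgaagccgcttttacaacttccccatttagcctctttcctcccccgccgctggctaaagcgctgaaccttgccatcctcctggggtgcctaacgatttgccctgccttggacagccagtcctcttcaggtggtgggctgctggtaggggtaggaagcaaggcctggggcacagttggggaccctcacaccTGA
SCAMP1-AS1: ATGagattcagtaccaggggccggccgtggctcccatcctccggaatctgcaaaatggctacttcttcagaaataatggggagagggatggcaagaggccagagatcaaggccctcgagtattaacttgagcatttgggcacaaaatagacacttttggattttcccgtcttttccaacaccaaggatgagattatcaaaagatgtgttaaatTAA
The frames of LINC01357 and SLC16A1-AS1 resemble each other: of 155 aligned bases 146 were identical (94.2%), with 1 gap base inside the alignment. The 20 bases on either side of that junction follow for 3 of these RNAs, with the 3 bases on each side that are joined by splicing in capitals.
LINC01357 junction: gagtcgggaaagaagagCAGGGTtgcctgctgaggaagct
RNASEH1-AS1 junction: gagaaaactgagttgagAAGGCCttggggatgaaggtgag
NR2F1-AS1 junction: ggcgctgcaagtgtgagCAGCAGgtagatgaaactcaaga
Among members that fell, for which 2 frames are printed, MNX1-AS1 (chr7:157010805-157016426, plus strand, 2 exons) and ZNF528-AS1 (chr19:52388842-52397766, minus strand, 1 exon) have no junction after the frame, while LOXL1-AS1 (chr15:73908071-73928248, minus strand, 4 exons) has 1, at 206 nt past the stop.
MNX1-AS1: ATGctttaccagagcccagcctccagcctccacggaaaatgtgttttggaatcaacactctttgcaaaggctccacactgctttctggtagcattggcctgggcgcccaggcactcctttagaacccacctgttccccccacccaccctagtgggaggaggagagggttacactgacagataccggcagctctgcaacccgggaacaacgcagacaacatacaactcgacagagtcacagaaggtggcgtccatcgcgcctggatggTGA
LOXL1-AS1: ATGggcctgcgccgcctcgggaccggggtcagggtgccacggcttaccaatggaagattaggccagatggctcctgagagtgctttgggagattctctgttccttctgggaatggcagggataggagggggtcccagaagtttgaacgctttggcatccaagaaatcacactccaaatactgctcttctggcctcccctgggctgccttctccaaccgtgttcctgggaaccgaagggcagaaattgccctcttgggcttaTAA

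In the CLIP line, which had no UPF1 transgene, members moved in both directions. With siUPF1, 27 of 207 members rose and 39 fell (edgeR quasi-likelihood test, adjusted p under 0.05). Over all genes tested, 18.1% rose and 15.6% fell, so that the members' shares, 13% and 18.8%, leaned towards falls. Level moves with this, and its part in it was not tested: of the 2847 genes tested between 4.58 and 15.2 CPM, the lower and upper quartile of the members' levels, 14.3% rose and 18.4% fell. The median log2 fold change was -0.08 over the members and -0.03 over all genes. Antisense members fell more often than they rose, 29 against 11 of 138 with a median of -0.15, while LINC members rose more often than they fell, 16 against 10 of 69 with a median of 0.04. LINC rises outnumbered falls in the CLIP line only. They numbered 11 and 11 in LECY, 5 and 5 in FE-ER, 6 and 8 in F192E and 3 and 4 in IR-ER. In WT and in E797R they numbered 2 and 5, and in I757R 1 and 2. Shares of all genes in those lines are given below. The difference between antisense and LINC members was not tested. These tests did not use the pairing of libraries by replicate number. With that number as a block common to all 16 groups, 35 members rose and 55 fell in the CLIP line. Such a block does not pair siUPF1 and siNT libraries within each line separately. Calls, adjusted p values and losses of a call without a library are from fits without the block, unless it is named.

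**Figure D1:**
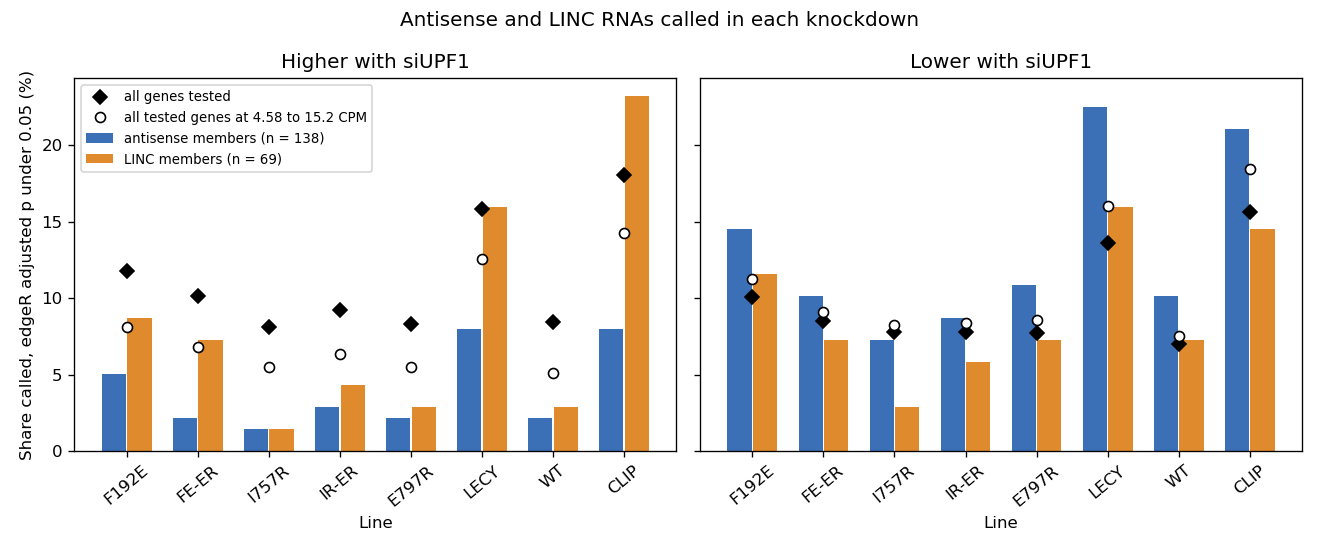
Share of antisense members (blue bars) and LINC members (orange bars) called higher (left) or lower (right) with siUPF1 than with siNT in each of 8 lines, in percent. Diamonds give all 16697 genes tested and open circles the 2847 genes tested between 4.58 and 15.2 CPM. In CLIP, 23.2% of LINC members and 7.97% of antisense members were called higher, and 14.5% of LINC members and 21.0% of antisense members were called lower.

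The largest rise was that of SCAMP1-AS1, which starts beside the gene for the secretory membrane protein SCAMP1. It had 16.6, 15.3 and 19.1 CPM in CLIP siUPF1 libraries, against 4.64, 4.16 and 4.44 CPM in CLIP siNT libraries (log2 fold change 1.95 ± 0.23 SE, adjusted p = 8.54e-09). The groups were far apart, and the lowest siUPF1 library stood well above the highest siNT library. LINC01357, whose frame is printed above, had 5.32, 7.35 and 6.34 CPM with siUPF1, against 1.19, 1.68 and 2.22 CPM with siNT (1.86 ± 0.31 SE, adjusted p = 6.29e-06). Its sequence-related neighbour SLC16A1-AS1, opposite the gene of the lactate transporter SLC16A1, was far more abundant at 105 ± 5.48 CPM with siUPF1 and 66.2 ± 11.8 CPM with siNT, and rose by 0.66 (adjusted p = 0.00058). Reads that match both of the last 2 genes could be split between them, and 10.4% of the values of LINC01357 and 18.8% of those of SLC16A1-AS1 were not whole numbers.

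LINC01578, now named CHASERR, lies next to the chromatin remodeller gene CHD2, which it is known to repress. It had 60.5, 103 and 92.7 CPM in CLIP siUPF1 libraries, against 31.3, 45.5 and 40.2 CPM in CLIP siNT libraries (1.12 ± 0.15 SE, adjusted p = 2.7e-07). Every siUPF1 library was above every siNT library, with the first replicate the lowest in both groups. LINC01881 had 15.1, 23.7 and 23.6 CPM with siUPF1, against 4.64, 6.46 and 6.66 CPM with siNT (1.79 ± 0.21 SE, adjusted p = 7.86e-09). LINC01881 and LINC01002, which averaged 32.4 ± 6.82 CPM with siUPF1 and 12.1 ± 1.17 CPM with siNT (1.42), are uncertain: 97.9% of the values of LINC01881 and 95.8% of those of LINC01002 were not whole, as RSEM gives where it divides reads between genes that share sequence. LINC00265 and LINC01578 are uncertain for the same reason, with 95.8% and 93.8% of values not whole.

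The other large rises were those of LINC00839 (1.34), UBA6-AS1 beside the gene of a ubiquitin-activating enzyme (1.09), LINC00888 (0.85), also typed as a transcribed pseudogene, SLC25A25-AS1 (0.84), NR2F1-AS1 opposite the gene of the nuclear receptor NR2F1 (0.80), LINC00265 (0.80) and RNASEH1-AS1 opposite the ribonuclease H1 gene (0.74). NR2F1-AS1 was tight in both groups, at 17.3, 16.8 and 16.8 CPM with siUPF1 and 9.15, 9.56 and 10.5 CPM with siNT. The call of LINC00265 was lost without CLIP siNT replicate 2 (adjusted p = 0.0538) or replicate 3 (adjusted p = 0.0529). The remaining 15 members that rose had log2 fold changes between 0.40 and 0.69.

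MNX1-AS1, divergent from the motor neuron homeobox gene MNX1, fell most. It had 1.58, 1.56 and 0.566 CPM in CLIP siUPF1 libraries, against 4.24, 3.72 and 4.89 CPM in CLIP siNT libraries (-1.76 ± 0.45 SE, adjusted p = 0.00224). LOXL1-AS1, opposite the gene of the elastin cross-linking enzyme LOXL1, had 1.24, 1.65 and 2.38 CPM with siUPF1, against 5.7, 4.61 and 6.75 CPM with siNT (-1.69 ± 0.38 SE, adjusted p = 0.000492). In both genes all siUPF1 libraries were below all siNT libraries, and all values were low. ASMTL-AS1 in the pseudoautosomal region, which the table lists for both X and Y with the same values and which is counted once here, fell by 1.72 on the log2 scale, with 60.4% of its values not whole.

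LINC00467, reported to encode a small mitochondrial peptide, was the most abundant of the 10 largest falls after SRRM2-AS1. It had 6, 6.71 and 4.19 CPM in CLIP siUPF1 libraries, against 13, 11.5 and 13.3 CPM in CLIP siNT libraries (-1.15 ± 0.18 SE, adjusted p = 1.9e-06). SRRM2-AS1, opposite the gene of the nuclear speckle protein SRRM2, averaged 5.89 ± 0.627 CPM with siUPF1 and 13.2 ± 2.04 CPM with siNT (-1.16). The others of the 10 were ZNF528-AS1 (-1.53), LPP-AS2 (-1.51), SDCBP2-AS1 (-1.36), PTOV1-AS1 (-1.14) and SNAI3-AS1 (-1.10). The remaining 29 members that fell had log2 fold changes between -1.07 and -0.43.

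The annotated structure of these groups is given as a description without a test. An exon junction more than 50 nt past the stop of the longest frame was present in 13 of 27 members that rose (48.1%), 13 of 39 that fell (33.3%) and 36 of 141 that were not called (25.5%). The median number of exons was 5 in members that rose, 3 in those that fell and 3 in the rest, and 2 members that rose, 9 that fell and 29 of the rest had a single exon. An overlap with a coding gene on the opposite strand was annotated for 48.1% of members that rose, 69.2% of those that fell and 64.5% of the rest. A start within 1 kb of the start of an opposite-strand coding gene was annotated for 29.6% of members that rose, 53.8% of those that fell and 45.4% of the rest. Of the members that rose, 11 were antisense and 16 LINC genes. An opposite-strand coding overlap was annotated for 87.0% of antisense and 15.9% of LINC members, so that the kind of gene moves with that share, and its part in it was not tested. A later junction was annotated for 29% of antisense and 31.9% of LINC members. At least 50% of values were not whole in 10 of 27 members that rose, 7 of 39 that fell and 24 of 141 others. That held for 26 of 69 LINC and 15 of 138 antisense members, and the part of shared reads was not tested.

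Antisense members and their sense genes are next set side by side. Of 138 antisense members 128 had a tested sense partner, all annotated on the opposite strand, 109 overlapping and 55 with starts within 1 kb. The partner had the higher count level in 103 pairs, with a median ratio of 3.70 in CPM, which is not scaled to length. Of these 128 antisense members 11 rose and 27 fell in the CLIP knockdown, and their partners rose in 25 and fell in 14 pairs. Of all genes tested 18.1% rose and 15.6% fell. Both were called in 11 pairs: 7 had a lower antisense RNA with a higher partner, 1 the reverse, 1 had both higher and 2 both lower. In 18 pairs the antisense RNA fell and the partner was not called. Whether 7 is more than 27 falls and 25 rises among 128 unlinked pairs would give was not tested. Across the 128 pairs the 2 log2 fold changes had a Pearson correlation of -0.08 and a Spearman correlation of -0.07, a description across genes that share the same libraries. Whether reads were counted by strand is not given in the sources used here, so that in the 109 overlapping pairs reads of the sense gene may be included.

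**Figure D2:**
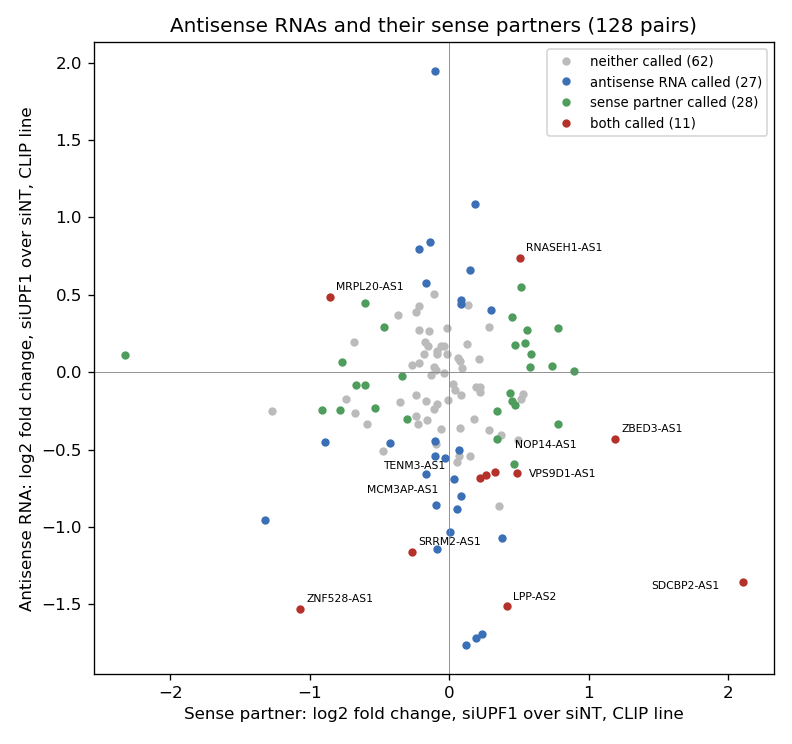
Log2 fold change (siUPF1 over siNT, CLIP line) of 128 antisense RNAs (vertical axis) against that of their sense partners (horizontal axis). Colours mark pairs with neither gene called (62), only the antisense RNA (27), only the partner (28) or both (11), and the fold changes of the pairs had a Pearson correlation of -0.08.

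SCAMP1-AS1 and SCAMP1 start 76 bp apart on opposite strands, and in the CLIP line SCAMP1 averaged 47.1 ± 7.07 CPM with siUPF1 and 50.5 ± 3.18 CPM with siNT (-0.10 ± 0.12 SE, adjusted p = 0.563), while the antisense RNA rose by 1.95. UBA6, 101 bp from UBA6-AS1, changed by 0.18 (adjusted p = 0.312) and MNX1, 154 bp from MNX1-AS1, by 0.12 (adjusted p = 0.76). The pair of ZNF528-AS1 and the zinc finger gene ZNF528, which start 83 bp apart, fell together: ZNF528 averaged 8.09 ± 1.04 CPM with siUPF1 and 17.1 ± 2.77 CPM with siNT (-1.07 ± 0.19 SE, adjusted p = 2.33e-05). ZNF528 was called lower in all 8 lines, with log2 fold changes between -1.07 and -0.70.

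The RefSeq promoter windows of the antisense RNA of these 2 pairs, 250 bases before to 50 after the start (GRCh38.p14, minus strand, 5′ to 3′), are shown because 1 pair moved together and the other did not, with each CG dinucleotide in capitals. SCAMP1-AS1 (chr5:78360492-78360791) holds 41 CG dinucleotides, more than 93.3% of all 35116 RefSeq windows, and ZNF528-AS1 (chr19:52397708-52398007) holds 26, more than 69.9% of them. The median was 14 over all windows and 23.5 over the 148 members with one. The first set was not limited by expression, while members had 3 CPM or more and entered with 1 window each. The 2 medians are thus not of like sets. These 2 pairs were picked, and whether CG content goes with the joint movement of a pair was not tested.
SCAMP1-AS1 promoter: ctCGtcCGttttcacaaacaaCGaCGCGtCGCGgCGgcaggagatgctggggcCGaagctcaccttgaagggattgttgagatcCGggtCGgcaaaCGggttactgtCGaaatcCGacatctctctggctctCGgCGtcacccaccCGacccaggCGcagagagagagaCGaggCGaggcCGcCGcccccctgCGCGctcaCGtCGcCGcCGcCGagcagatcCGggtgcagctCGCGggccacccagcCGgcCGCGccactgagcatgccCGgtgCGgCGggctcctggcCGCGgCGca
ZNF528-AS1 promoter: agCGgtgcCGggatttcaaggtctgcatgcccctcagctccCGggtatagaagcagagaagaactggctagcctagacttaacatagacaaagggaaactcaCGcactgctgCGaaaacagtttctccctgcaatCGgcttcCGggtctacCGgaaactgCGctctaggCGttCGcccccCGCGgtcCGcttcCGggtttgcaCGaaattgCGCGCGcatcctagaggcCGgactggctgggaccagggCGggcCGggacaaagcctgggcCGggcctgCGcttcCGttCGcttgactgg

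Where both genes of an overlapping pair were called, SDCBP2 and SDCBP2-AS1 were farthest apart. SDCBP2, a relative of the scaffold protein syntenin, averaged 2.48 ± 0.714 CPM with siUPF1 and 0.547 ± 0.157 CPM with siNT in the CLIP line (2.11 ± 0.46 SE, adjusted p = 0.000385), while SDCBP2-AS1 averaged 1.78 ± 0.353 CPM with siUPF1 and 4.53 ± 0.138 CPM with siNT. ZBED3 rose by 1.19 and LPP, a focal adhesion protein gene, by 0.41 where ZBED3-AS1 fell by 0.43 and LPP-AS2 by 1.51 on the log2 scale, although all values of ZBED3-AS1 (100%) were not whole. NOP14 (0.33), MCM3AP (0.22), VPS9D1 (0.49) and TENM3 (0.26) also rose where their antisense RNA fell. RNASEH1 rose by 0.51 with RNASEH1-AS1 and SRRM2 fell by 0.27 with SRRM2-AS1. MRPL20, a mitochondrial ribosome protein gene, fell by 0.86 on the log2 scale where MRPL20-AS1 rose by 0.49. Other partners of named members were not called: LOXL1 (0.24), ASMTL (0.19), NR2F1 (-0.22), SLC25A25 (-0.14), PTOV1 (-0.09), TRAF3IP2 (-0.04), THAP9 (0.09), PSMD6 (-0.21) and CCDC183 (-1.32, adjusted p = 0.0649).

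The same siRNA was then compared with siNT in the lines that carried a CLIP-UPF1 transgene. Between 15 and 64 members passed the test in each of them. Rises and falls numbered 13 and 28 in F192E, where 11.8% of all genes rose and 10.1% fell, 8 and 19 in FE-ER (10.1% and 8.52%), and 3 and 12 in I757R (8.13% and 7.79%). They numbered 7 and 16 in IR-ER (9.21% and 7.8%), 5 and 20 in E797R (8.34% and 7.73%), 22 and 42 in LECY (15.8% and 13.6%), and 5 and 19 in WT (8.43% and 6.98%). In every line the share of members that rose was below that of all genes and of the 2847 genes between 4.58 and 15.2 CPM. The share of members that fell was above that of all genes in F192E (13.5%), LECY (20.3%), WT (9.18%), E797R (9.66%) and FE-ER (9.18%). It was below that of all genes in I757R (5.80%) and nearly equal to it in IR-ER (7.73%). Of the 2847 genes, 11.3% fell in F192E, 15.98% in LECY, 7.52% in WT, 8.57% in E797R and 9.06% in FE-ER. In I757R 8.22% of them fell and in IR-ER 8.36%. Members in FE-ER thus fell about as often as genes at similar level, and the part of level was not tested. With the replicate number as a block, rises and falls numbered 23 and 42 in F192E, 27 and 34 in FE-ER, 14 and 26 in I757R, 19 and 27 in IR-ER, 14 and 34 in E797R and 7 and 30 in WT, in total over 1.5 times the counts without it. A fit of only the compared groups gave 1 rise and 6 falls in I757R, 3 and 12 in IR-ER, 1 and 9 in E797R and 0 and 7 in WT. Leaving out 1 library lowered the total to 23 in F192E (siUPF1 replicate 1), to 14 in IR-ER (siUPF1 replicate 1 or 2) and to 14 in E797R (siUPF1 replicate 1). In WT it gave 13 without siUPF1 replicate 1, 14 without siUPF1 replicate 2 and 15 without siNT replicate 3. The shares of all genes above are from the fit of all 48 libraries without a block. They do not apply to the counts of the other fits, for which no such shares are given here.

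Members that rose in the CLIP line were called in the lines with a transgene to differing extents. Matching counts over all genes that rose in CLIP are not given here, so the counts below are not shown to be particular to members. Of the 27, those called higher were 10 in F192E, 2 in I757R, 7 in FE-ER, 3 in IR-ER, 3 in E797R, 20 in LECY and 2 in WT. With the replicate number as a block they were 17 in F192E, 8 in I757R, 14 in FE-ER, 7 in IR-ER, 5 in E797R, 22 in LECY and 2 in WT. A positive log2 fold change was found for 25 of the 27 in F192E, 23 in I757R, 25 in FE-ER and 23 in IR-ER. It was found for 23 in E797R, 27 in LECY and 19 in WT. Their median log2 fold change was 0.36 in F192E, 0.24 in I757R, 0.34 in FE-ER, 0.29 in IR-ER, 0.16 in E797R, 0.66 in LECY, 0.11 in WT and 0.66 in CLIP. Since the 27 were chosen on the CLIP libraries, their median there is larger by that choice. SCAMP1-AS1 shows the range: its log2 fold change was 1.22 in F192E, 0.63 in I757R, 0.88 in FE-ER, 0.52 in IR-ER, 0.58 in E797R, 1.58 in LECY and 0.34 in WT, and it was called in F192E, FE-ER and LECY. It had 20.2, 16.1 and 17.9 CPM in LECY siUPF1 libraries, against 5.94, 4.96 and 7.17 CPM in LECY siNT libraries. In WT it had 6.1, 4.85 and 5.81 CPM with siUPF1, against 5.91, 2.73 and 4.94 CPM with siNT. The LECY groups lay apart, as in the CLIP line, while those of WT overlapped. The call in FE-ER was lost without siNT replicate 2 (adjusted p = 0.0537).

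Nearly all members that fell in the CLIP line had the same sign in each other line. The matching count over all genes that fell in CLIP is not given here. Of the 39, those called lower were 26 in F192E, 12 in I757R, 17 in FE-ER, 13 in IR-ER, 14 in E797R, 33 in LECY and 15 in WT, and at least 38 of the 39 had a negative log2 fold change in each line. With the replicate number as a block, those called lower were 31 in F192E, 18 in I757R, 25 in FE-ER and 19 in IR-ER. They were 19 in E797R, 36 in LECY and 21 in WT. Their median was -0.67 in F192E, -0.47 in I757R, -0.57 in FE-ER, -0.46 in IR-ER, -0.51 in E797R, -0.80 in LECY, -0.55 in WT and -0.87 in CLIP. The 39 were also chosen on the CLIP libraries, so their median there is larger in size by that choice. Whether falls differ from rises in how much of the CLIP effect the transgenes left was not tested.

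**Figure D3:**
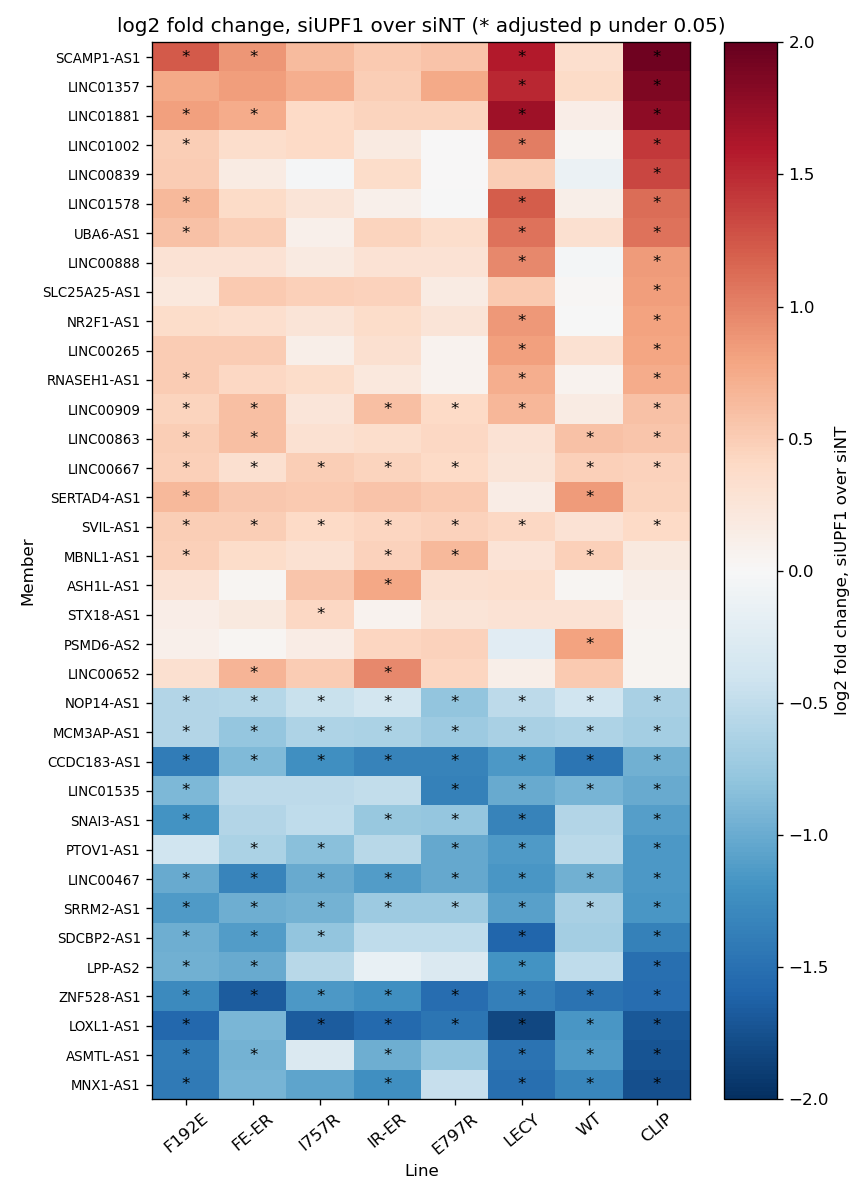
Log2 fold change (siUPF1 over siNT) of the 36 members named for a knockdown, ordered by the value in the CLIP line, in each of 8 lines. Red is higher and blue lower with siUPF1, and an asterisk marks an adjusted p under 0.05. SCAMP1-AS1, LINC01357 and LINC01881 are darkest in LECY and CLIP, and the 14 rows from NOP14-AS1 down are blue in all lines.

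MNX1-AS1, the largest fall in CLIP, was also called lower in F192E (-1.41), IR-ER (-1.23), LECY (-1.51) and WT (-1.31), and each of these 4 calls was lost without at least 2 single libraries, among them siUPF1 replicate 2 and siNT replicate 3 in every one. LOXL1-AS1 was called lower in every line but FE-ER (-0.91, adjusted p = 0.0699), with log2 fold changes of -1.57 in F192E, -1.67 in I757R, -1.55 in IR-ER, -1.46 in E797R, -1.82 in LECY and -1.16 in WT. ASMTL-AS1 changed by -1.40 in F192E and SDCBP2-AS1 by -1.12 in FE-ER and -1.59 in LECY. LINC01535 was among the 3 largest falls in E797R (-1.36) and was called lower there and in WT (-0.93).

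Lower levels in all 8 knockdowns were called for 6 members: ZNF528-AS1, LINC00467, CCDC183-AS1, SRRM2-AS1, MCM3AP-AS1 and NOP14-AS1. These were 2.9% of members, against 3.2% of all genes tested. None was called higher in all 8 by edgeR, where 3.54% of all genes were. LINC00467 did not overlap between the siRNAs over the 8 lines: its highest siUPF1 library in any line, at 6.89 CPM, was below its lowest siNT library, at 8.95 CPM. Its log2 fold change was -1.01 in F192E, -1.01 in I757R, -1.31 in FE-ER, -1.12 in IR-ER, -1.02 in E797R, -1.16 in LECY, -0.97 in WT and -1.15 in CLIP. ZNF528-AS1 ranged between 0.838 and 2.8 CPM over the siUPF1 libraries and between 3.19 and 6.62 CPM over the siNT libraries, again with no overlap, and fell by 1.15 to 1.67 on the log2 scale. CCDC183-AS1 had 2.44, 2.51 and 0.969 CPM in WT siUPF1 libraries, against 5.42, 6.48 and 4.18 CPM in WT siNT libraries (-1.47 ± 0.30 SE), and changed by -0.95 in CLIP.

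The other 3 were less firm. SRRM2-AS1 changed by -0.65 in WT, where the call was lost without siNT replicate 2 or 3 or siUPF1 replicate 2. MCM3AP-AS1, opposite the gene of an mRNA export factor, changed by -0.61 in WT and -0.69 in CLIP, and 7 of its 8 calls were lost without at least 1 library, that in FE-ER being the exception. NOP14-AS1 changed by -0.40 in WT and -0.37 in IR-ER, where in each case 4 single libraries decided the call. CCDC183-AS1 lost its call in FE-ER without siNT replicate 1 or siUPF1 replicate 1, and SRRM2-AS1 lost those in IR-ER and E797R without siUPF1 replicate 1, and that in IR-ER also without siNT replicate 2. In a fit of only the compared groups, at least 1 call each was lost for CCDC183-AS1, SRRM2-AS1, MCM3AP-AS1 and NOP14-AS1.

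**Figure D4:**
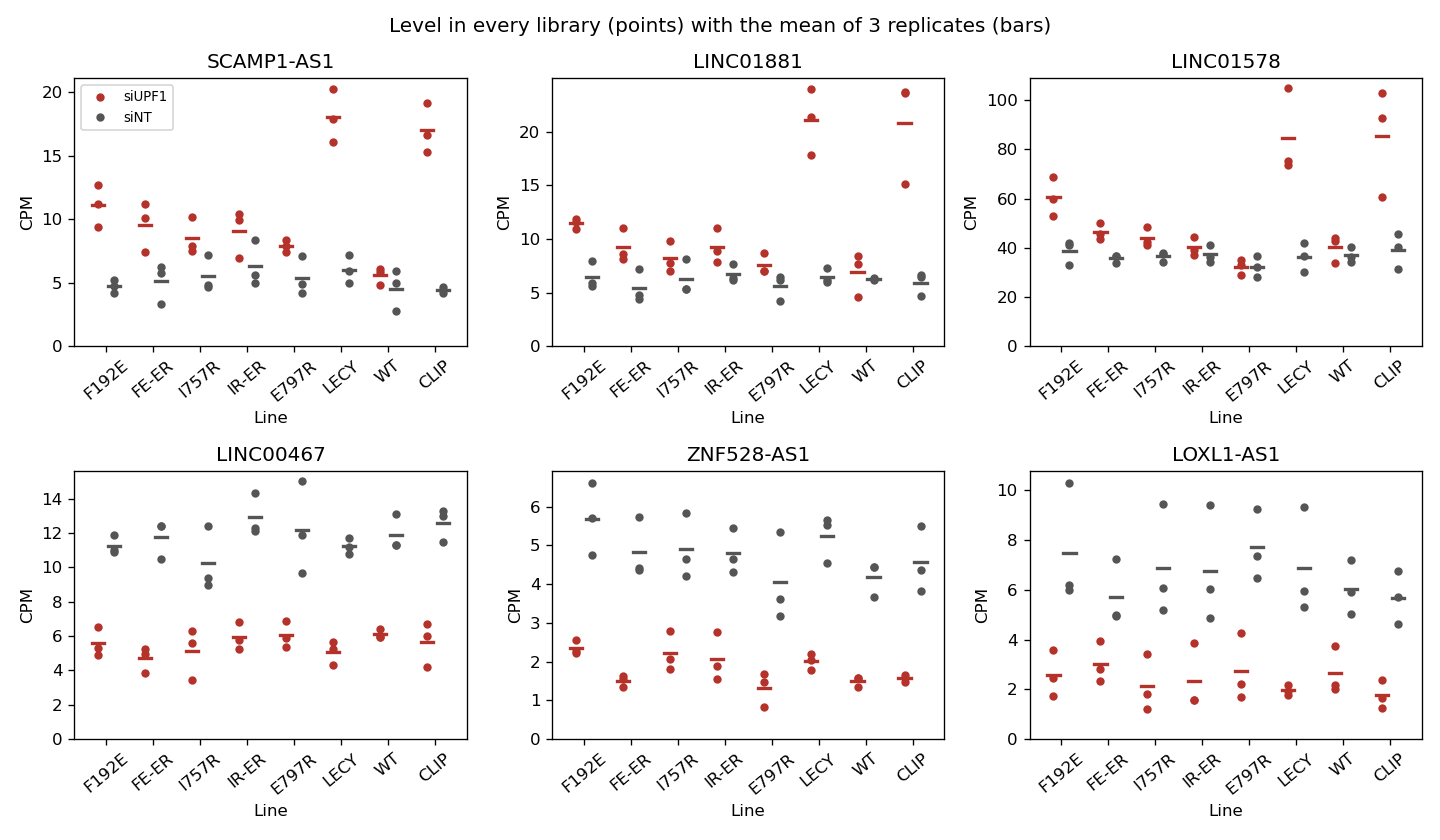
Level in CPM of 6 members in each of 48 libraries, with siUPF1 (red) left of siNT (grey) in each line. Points are libraries and bars the mean of 3 replicates. SCAMP1-AS1, LINC01881 and LINC01578 separate widely in LECY and CLIP, and LINC00467 and ZNF528-AS1 are lower with siUPF1 in all 8 lines.

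A few members rose in most lines at small effect sizes. LINC00667 was called higher in every line but LECY, with 23.6, 22.5 and 25.2 CPM in WT siUPF1 libraries, against 14.4, 19.5 and 17.3 CPM in WT siNT libraries (0.47 ± 0.11 SE, adjusted p = 0.00161). In LECY its log2 fold change was 0.25 (adjusted p = 0.0738). SVIL-AS1 was called higher in every line but WT (0.29, adjusted p = 0.0932), with 0.40 in CLIP and 0.50 in F192E and FE-ER. Its call in I757R was lost without siNT replicate 3 or siUPF1 replicate 3, and that in E797R without siNT replicate 2.

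Several of the largest rises in lines with a transgene were in members that were not called in the CLIP line: SERTAD4-AS1, PSMD6-AS2, LINC00652, ASH1L-AS1, STX18-AS1 and MBNL1-AS1. In WT, SERTAD4-AS1 had 7.18, 7.2 and 8.84 CPM with siUPF1, against 3.78, 5.35 and 3.67 CPM with siNT (0.85 ± 0.21 SE, adjusted p = 0.0031). PSMD6-AS2 had 5.28, 7.52 and 4.72 CPM in WT siUPF1 libraries, against 3.12, 3.53 and 3.29 CPM in WT siNT libraries (0.80 ± 0.18 SE, adjusted p = 0.00264). The groups did not overlap, but the second siUPF1 library stood above the others and the call was lost without it (adjusted p = 0.0717). LINC00863, called also in CLIP (0.56), rose by 0.58 in WT, with a call lost without siNT replicate 1 or 3 or siUPF1 replicate 2. In IR-ER, LINC00652 rose by 0.96, ASH1L-AS1 by 0.77 and LINC00909, called also in CLIP (0.59), by 0.60, and the call of ASH1L-AS1 was lost without any 1 of the 6 libraries. In I757R, STX18-AS1 rose by 0.42, a call lost without siUPF1 replicate 2 or 3 or siNT replicate 1 or 3, and in E797R MBNL1-AS1 rose by 0.65. LINC00652 also rose by 0.68 in FE-ER, a call lost without siUPF1 replicate 1 or 3 or siNT replicate 2 or 3. In a fit of only the compared groups, none of these calls in lines with a transgene remained but those of LINC00909 in IR-ER and MBNL1-AS1 in E797R.

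The difference between knockdown effects was tested directly. The effect in WT minus that in CLIP was called for 9 members, all lower in WT, against 4.0% of all genes in either direction, 3.23% lower and 0.767% higher. They were LINC01881 (-1.66 ± 0.31 SE), SCAMP1-AS1 (-1.61 ± 0.34 SE), LINC00839 (-1.47 ± 0.35 SE), LINC01002 (-1.38 ± 0.25 SE), LINC01578 (-1.01 ± 0.22 SE), LINC00174 (-0.99), LINC01001 (-0.98), TRAF3IP2-AS1 (-0.97) and THAP9-AS1 (-0.96). In each of the first 5 the CLIP effect was a called rise and the WT effect lay between -0.12 and 0.34 without a call. With the replicate number as a block, 17 members differed, 14 lower and 3 higher in WT. The shares of all genes above are from the fit without the block. Of the 9 members, LINC01881, LINC01002, LINC01578, LINC00174, LINC01001 and THAP9-AS1 have 87.5% to 100% of their values not whole, so that the division of shared reads bears on 6 of them.

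**Figure D5:**
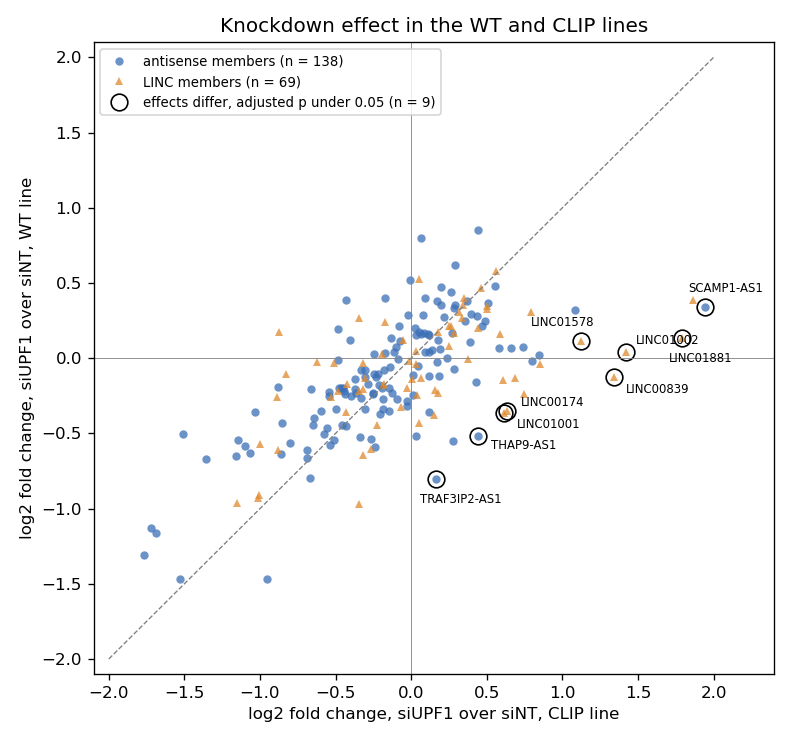
Log2 fold change (siUPF1 over siNT) in the WT line (vertical axis) against that in the CLIP line (horizontal axis) for 138 antisense (circles) and 69 LINC members (triangles), with the line of equal effects dashed. Rings mark the 9 members whose effects differed, which lie below the dashed line at positive CLIP values.

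LINC01881, typed in GENCODE as a transcribed pseudogene, had 4.61, 8.46 and 7.63 CPM in WT siUPF1 libraries, against 6.24, 6.37 and 6.2 CPM in WT siNT libraries, groups that overlapped. LINC01002 had 14.2, 12.5 and 15 CPM in WT siUPF1 libraries, against 14.6, 11.1 and 15.2 CPM in WT siNT libraries, and again the groups overlapped, while in CLIP its lowest siUPF1 library, at 24.5 CPM, was above its highest siNT library, at 13.4 CPM. LINC00839, whose values were all whole (0.0% not whole), is the LINC member of the list least open to shared reads. It had 5.21, 6.25 and 7.36 CPM in CLIP siUPF1 libraries, against 1.99, 2.83 and 2.49 CPM in CLIP siNT libraries. In WT it had 2.44, 3.45 and 3.27 CPM with siUPF1, against 3.94, 3.19 and 2.91 CPM with siNT. Its difference between lines was no longer called without the filter on low counts (adjusted p = 0.058). UBA6-AS1, which was not called different between these lines, rose in CLIP at 14 ± 2.23 CPM with siUPF1 and 6.66 ± 2.15 CPM with siNT, and averaged 7.86 ± 1.25 CPM with siUPF1 and 6.3 ± 1 CPM with siNT in WT (0.32).

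THAP9-AS1 was the only member called in opposite directions. It had 18.8, 20.4 and 21.6 CPM in WT siUPF1 libraries, against 27.1, 27.9 and 31.9 CPM in WT siNT libraries (-0.52 ± 0.16 SE, adjusted p = 0.0196). In CLIP it had 29.9, 38.1 and 36.9 CPM with siUPF1, against 24.8, 27.2 and 25.3 CPM with siNT (0.44 ± 0.15 SE, adjusted p = 0.0194). The groups did not overlap in either line, and 87.5% of its values were not whole. TRAF3IP2-AS1 fell in WT, at 5.82 ± 0.521 CPM with siUPF1 and 10.2 ± 0.919 CPM with siNT (-0.81), and averaged 11.1 ± 2.18 CPM with siUPF1 and 9.92 ± 2.96 CPM with siNT in CLIP (0.17, adjusted p = 0.534).

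The effect in LECY minus that in WT was called for 9 members, 8 higher and 1 lower in LECY, against 2.76% and 0.551% of all genes (3.31% in either direction). This difference shares the WT libraries with the one before. The values were 1.56 for LINC01881, 1.24 for SCAMP1-AS1, 1.10 for LINC01578, 1.02 for TRAF3IP2-AS1, 1.02 for LINC01001, 1.0 for LINC00888, 0.99 for LINC01002, 0.93 for THAP9-AS1 and -1.03 for PSMD6-AS2. Most values of LINC01881, LINC01578, LINC01001, LINC01002 and THAP9-AS1 were not whole, so that the division of shared reads bears on these here too. LINC01578 had 73.5, 105 and 75.3 CPM in LECY siUPF1 libraries, against 30, 42.1 and 36.5 CPM in LECY siNT libraries. In WT it had 33.7, 42.9 and 43.8 CPM with siUPF1, against 34.3, 40.5 and 36.4 CPM with siNT. The LECY groups were well apart and the WT groups overlapped. With the replicate number as a block 19 members differed, without WT siUPF1 replicate 2 the count was 5, and in a fit of only the compared groups it was 3, all higher in LECY. The shares of all genes above are not from these fits. The calls of SCAMP1-AS1, LINC01001 and TRAF3IP2-AS1 were each lost without at least 3 of the libraries in turn, and that of PSMD6-AS2 without WT siUPF1 replicate 2. All 4 were also lost in the fit of only the compared groups, with adjusted p = 0.127 for SCAMP1-AS1, 0.0542 for LINC01001, 0.137 for TRAF3IP2-AS1 and 0.191 for PSMD6-AS2. PSMD6-AS2 was not called by DESeq2 (adjusted p = 0.0585) or without the filter on low counts (adjusted p = 0.403), nor TRAF3IP2-AS1 without that filter (adjusted p = 0.0699).

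For the other 5 variants no member's knockdown effect was called different from that in WT by edgeR or by DESeq2. Of all genes, 0.18% were called for F192E, 0.00599% for FE-ER and 0.0% for I757R, IR-ER and E797R. At an unadjusted p under 0.05 the members were 8 for F192E (3.86% of members, against 4.38% of all genes), 5 for FE-ER (2.42% against 2.55%), 4 for I757R (1.93% against 1.87%), 3 for IR-ER (1.45% against 1.65%) and 2 for E797R (0.966% against 1.64%). Those of largest size for F192E were LINC01534 (1.22 ± 0.34 SE, adjusted p = 0.216), LINC00937 (-0.94 ± 0.40 SE, adjusted p = 0.998) and SCAMP1-AS1 (0.89 ± 0.35 SE, adjusted p = 0.862). A p above the threshold does not show that these effects equalled those in WT. LECY was not compared with CLIP.

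With siNT, where endogenous UPF1 was present, 1 member differed between lines. LINC00632, the transcript from which the circular RNA CDR1-AS is known to be made, had 2.16, 2.05 and 2.51 CPM in I757R siNT libraries, against 6.57, 7.85 and 6.96 CPM in WT siNT libraries (-1.67 ± 0.27 SE, adjusted p = 0.005). It was the only gene called among all 16697 in that comparison, 0.00599%, and its groups lay wide apart. The call was lost without I757R siNT replicate 1 or 2 or WT siNT replicate 2, with adjusted p between 0.094 and 0.14, and in a fit of only the compared groups (adjusted p = 0.466). Its siNT level was 3.66 ± 0.849 CPM in F192E, 2.24 ± 0.24 CPM in I757R, 10.9 ± 1.04 CPM in FE-ER, 3.32 ± 0.382 CPM in IR-ER, 3.68 ± 0.608 CPM in E797R, 2.75 ± 1.11 CPM in LECY, 7.13 ± 0.657 CPM in WT and 6.72 ± 1.53 CPM in CLIP. With siUPF1 it was 2.94 ± 1.09 CPM in I757R and 8.08 ± 0.497 CPM in WT, and it was called in no knockdown (adjusted p of 0.192 or more). In LECY against WT its difference of -1.39 had an adjusted p of 0.0657, and with the replicate number as a block 1 member was called there.

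For the other siNT comparisons edgeR called no member. DESeq2 called 1 for LECY and none for the rest. At an unadjusted p under 0.05 the members were 4 for F192E (1.93% of members, against 1.93% of all genes), 4 for FE-ER (1.93% against 2.35%), 7 for IR-ER (3.38% against 2.73%), 4 for E797R (1.93% against 2.88%), 8 for LECY (3.86% against 2.11%), each compared with WT, and 2 for WT against CLIP (0.966% against 1.52%). Among all genes the share called was 0.0% for F192E, 0.00599% for FE-ER, IR-ER and LECY, 0.018% for E797R and 0.012% for WT against CLIP.

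Across the 8 lines, 94 members (45.4%) were called in at least 1 knockdown, against 47.1% of all genes, and 113 in none. Log2 fold changes were above 0 in all 8 lines for 47 members (22.7%, against 23.4% of all genes) and below 0 in all 8 for 58 (28.0%, against 23.6%). By the correlation of log2(CPM + 1) over the 16 group means, a description over groups that share lines, the members most like SCAMP1-AS1 were LINC01881 (0.96), SLC16A1-AS1 (0.96) and RNASEH1-AS1 (0.96). Those most like MNX1-AS1 were LINC01355 (0.95), SRRM2-AS1 (0.94) and PITPNA-AS1 (0.94).

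Other groups of RNAs give a setting for these counts. Of 23 snoRNA host RNAs tested, a class with known NMD substrates, 11 rose in F192E, 3 in I757R, 4 in FE-ER and 4 in IR-ER. Rises numbered 2 in E797R, 14 in LECY, 1 in WT and 15 in CLIP, while 1 fell in LECY and 2 in CLIP. The 2 that fell in CLIP were SNHG3 (-0.47) and SNHG19 (-1.07). Their class had a median log2 fold change of 0.90 in LECY, -0.14 in WT and 0.86 in CLIP. Of 17 NMD factor genes, 6 rose in F192E, 1 in I757R, 6 in FE-ER, 3 in IR-ER, 1 in E797R, 9 in LECY, 1 in WT and 10 in CLIP, while 4 fell in E797R, 1 in LECY, 2 in WT and 1 in CLIP. Of 15 other well-studied long noncoding RNAs 4 rose and 2 fell in CLIP, and of 64 divergent, intronic and overlapping transcripts 1 rose and 4 fell. Differences between these lists and the members were not tested.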

How the data were processed

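Total RNA was depleted of rRNA and made into libraries with the xGen RNA Library Preparation Kit, per the labels' protocols. The deposited table holds RSEM expected counts per gene, and cutadapt, STAR, RSEM, DESeq2 and hg38 are named in the submitters' processing notes. The annotation release and strand setting are not given in the sources used here, and 9.16% of values were not whole.

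Expected counts were rounded and fitted in edgeR 4.0.16 (R 4.3.3) with TMM factors and 16 groups, for genes passing filterByExpr with a minimum count of 10. The quasi-likelihood test was adjusted over all 16697 genes by Benjamini-Hochberg. CPM uses TMM-scaled library sizes. DESeq2 1.42.0 and the other alternatives are given in the closing section. Same-numbered siUPF1 and siNT libraries deviated together in every line (correlations of deviations 0.115 to 0.469), so the numbers pair the libraries. The main fit and the fits with a library left out do not use this pairing. The block takes the shift of a replicate number as the same in all 16 groups, and this was not tested. A gene not called, or a call lost, in them may be called with the block. No replicate pair was identical. Depth limits precision, most of all for members near 3 CPM. Members named in the text were the 12 largest rises and 10 largest falls in CLIP, the 3 largest each way in other lines, members called alike in all lines, and the largest called differences. Others named were chosen after their values were seen. Members, lists and rules were chosen with earlier results of these data known, and the band of genes at similar level after seeing the values. Frames and exons are from GENCODE 29 and promoters from RefSeq. The frame of ZNF528-AS1 is not reported here.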

Additional observations from a re-analysis of the deposited data

Results flagged for a closer look

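Knockdown effects that differed between lines by a test of the difference itself (edgeR, adjusted over all genes) are listed here. The effect in WT minus that in CLIP was -1.66 for LINC01881, -1.61 for SCAMP1-AS1, -1.47 for LINC00839, -1.38 for LINC01002, -1.01 for LINC01578, -0.99 for LINC00174, -0.98 for LINC01001, -0.97 for TRAF3IP2-AS1 and -0.96 for THAP9-AS1 on the log2 scale. The effect in LECY minus that in WT was 1.56 for LINC01881, 1.24 for SCAMP1-AS1, 1.10 for LINC01578, 1.02 for LINC01001, 1.02 for TRAF3IP2-AS1, 1.0 for LINC00888, 0.99 for LINC01002, 0.93 for THAP9-AS1 and -1.03 for PSMD6-AS2. Both differences use the same WT libraries. The limit from shared reads given above holds for members of both lists.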

How the results depend on the processing

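Members called with siUPF1 against siNT were recounted under each alternative. With the replicate number as a block they were 65 in F192E, 40 in I757R, 61 in FE-ER, 46 in IR-ER, 48 in E797R and 37 in WT, and all members called without the block remained. The block gave 17 members for the effect of WT minus CLIP, 19 for LECY minus WT and 1 for LECY against WT with siNT. It took away no named call. Without the filter on low counts the totals were 27 in F192E, 8 in I757R, 14 in IR-ER, 13 in E797R and 15 in WT, and with siNT 1 each for IR-ER and LECY against WT. Fitting only the compared groups gave 7 in I757R, 15 in IR-ER, 10 in E797R and 7 in WT, 3 for LECY minus WT and 0 for I757R against WT with siNT. DESeq2 gave 1 for LECY against WT with siNT. Other counts stayed within 1.5 times, and RLE factors moved none beyond that. Leaving out 1 library gave 23 to 37 members in F192E, 11 to 18 in I757R, 18 to 24 in FE-ER, 14 to 22 in IR-ER, 14 to 23 in E797R, 50 to 64 in LECY, 13 to 23 in WT and 51 to 61 in CLIP. It gave 7 to 10 for WT minus CLIP, 5 to 10 for LECY minus WT, 0 to 1 for I757R against WT with siNT and 0 throughout for the other differences. A threshold of 5 CPM would leave 143 members, and CPM by plain library totals the same number, 207. Of 114 named values none reversed under any alternative, 17 were no longer called without the filter, 24 in the fit of the compared groups and 4 by DESeq2, as were 99 of 756 with a library left out. The cause of these changes was not tested. Shares of all genes in the alternative fits are not given here, so that these counts are not set against them.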
